A study of Mus musculus with 96 samples.

Results

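The genes described here are a set of 10 that move sterols and lipoproteins in liver, namely the exporters Abca1, Abcg1, Abcg5 and Abcg8, the receptors Vldlr, Lrp1 and Scarb1, and Lipc, Mttp and Lcat, which remodel or assemble lipoproteins. They were named as a list, and a probe set was taken as a member when its annotation gave exactly 1 gene symbol and that symbol was in the list. This rule found 21 of the 45101 probe sets on the array, for 9 of the 10 genes. Hepatic lipase, Lipc, had no such probe set and was not analysed here. The measurements are hepatic RNA levels of male mice of 6 strains, taken at 22 weeks of age, with 1 mouse on each of 96 Affymetrix expression arrays. From 8 weeks of age the mice ate a diet cut by 25% in calories or the control diet, and each combination of strain and diet held 8 mice. The 5 inbred strains were DBA/2J, CBA/J, C3H/HeJ, 129S1/SvImJ and C57BL6/J, and the remaining one was B6C3F1/J, a cross of C57BL6/J with C3H/HeJ. From arrival at 6 weeks until then every mouse, restricted or control, lived singly and received 84 kcal weekly.

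Hepatocytes handle cholesterol at both of their surfaces. At the blood side ABCA1 loads lipid onto apolipoprotein A-I to begin high-density lipoprotein (HDL), LCAT esterifies the cholesterol of HDL in plasma, and SR-BI, the product of Scarb1, takes cholesteryl ester out of HDL again. At the bile side ABCG5 and ABCG8 pair into 1 transporter that secretes cholesterol and plant sterols, and loss of either member causes sitosterolaemia in humans. MTTP loads lipid onto apolipoprotein B to make very-low-density lipoprotein (VLDL), while the receptors VLDLR and LRP1 take up triglyceride-rich particles and their remnants. Liver X receptors (LXR), which sense oxysterols, are known to induce Abca1, Abcg1, Abcg5 and Abcg8.

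Levels are given as log2 MAS5 signals. A difference is the restricted minus the control mean on that scale, with its SE from the linear model, and a call is a limma adjusted p under 0.05 over 14816 genes. The signal has no unit per transcript length, so levels were compared between groups of mice and not between genes. In 2 arrays, DBA/2J restricted replicate 6 and B6C3F1/J control replicate 2, the array median log2 signal lay above 8, against a mean of 6.71 over all arrays, and results that rest on them are given for the other 94 arrays too. The 8 restricted CBA/J mice also differed from their controls in array median, at 6.99 to 7.5 against 6.42 to 6.63 (exact permutation p = 0.000155, adjusted p = 0.00373 over 48 comparisons). There the median difference of all genes was 0.31, which fell to 0.07 after quantile normalization, so member values in CBA/J are to be read against it. Mean log2 signals of 7 hepatocyte marker genes ran from 13.70 to 16.96, and those of 4 cholangiocyte markers from 5.55 to 6.67. Those of 7 stellate cell and fibroblast markers ran from 5.65 to 12.96. Because signals are not compared between genes, these levels do not test the liver label. The mean of the hepatocyte markers was 17.18 in restricted CBA/J mice and 15.62 in control CBA/J mice (exact permutation p = 0.000155, adjusted p = 0.00373), and its part in the CBA/J results was not tested.

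Averaged over the 6 strains, restricted mice had higher levels of the biliary sterol transporter genes Abcg5 and Abcg8 and of the receptors Vldlr and Scarb1, and a lower level of Lcat. That makes 4 of 9 members higher and 1 lower, where 15.2% of all genes tested were called higher and 12.4% lower. The median difference of the 9 members was 0.31, against 0.07 for all genes. The differences of Vldlr, Abcg5 and Abcg8 were above 0 in all 6 strains and were called in 3, 4 and 5 of them. Those of the others, Abca1, Abcg1, Lrp1, Scarb1, Mttp and Lcat, took both signs. The averages of Abca1, Abcg1, Lrp1 and Mttp did not pass the test. Without the 2 arrays of high median, Lrp1 was also called higher and Abca1 lower, beside backgrounds of 18.7% and 15.1%. In whole liver, a lower level in each cell and fewer cells of the type that makes the RNA cannot be told apart. Markers of liver cell types differed with diet as well. Of 7 hepatocyte markers 5 were called higher, and differences ran from -0.10 in Hnf4a, which was not called, to 1.01 in Tat. The mean log2 signal of the 7 was 16.14 ± 0.64 in restricted and 15.85 ± 0.40 in control mice (SD, n = 48 each, permutation test, adjusted p = 0.0028 over 8 measures). By strain this difference was 1.56 in CBA/J (permutation adjusted p = 0.00373). In the other strains it ran from -0.28 in 129S1/SvImJ to 0.29 in DBA/2J, with permutation adjusted p from 0.113 to 0.705. Of 8 endothelial markers 3 were called higher, with means of 9.68 in restricted and 9.56 in control mice (permutation adjusted p = 0.0179). Their differences ran from -0.14 in Lyve1 to 0.63 in Kdr, and those of Fcgr2b, Cdh5 and Tek were also below 0, all of these uncalled except Kdr. Of 7 stellate cell and fibroblast markers Col3a1 was called higher (0.73) and Dcn lower (-0.40), with means of 9.34 in restricted and 9.12 in control mice (permutation adjusted p = 0.0028). Of 4 cholangiocyte markers 1 was called higher, with means of 6.16 in restricted and 5.81 in control mice (permutation adjusted p = 0.0431), and of 8 Kupffer cell and macrophage markers 1 was. The 5 lymphocyte and 3 adipocyte markers tested did not pass, with adjusted p of 0.211 to 0.841. The part of these markers in the members' results was not tested. The plot of diet effects gives each member in each strain.

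**Figure D1:**
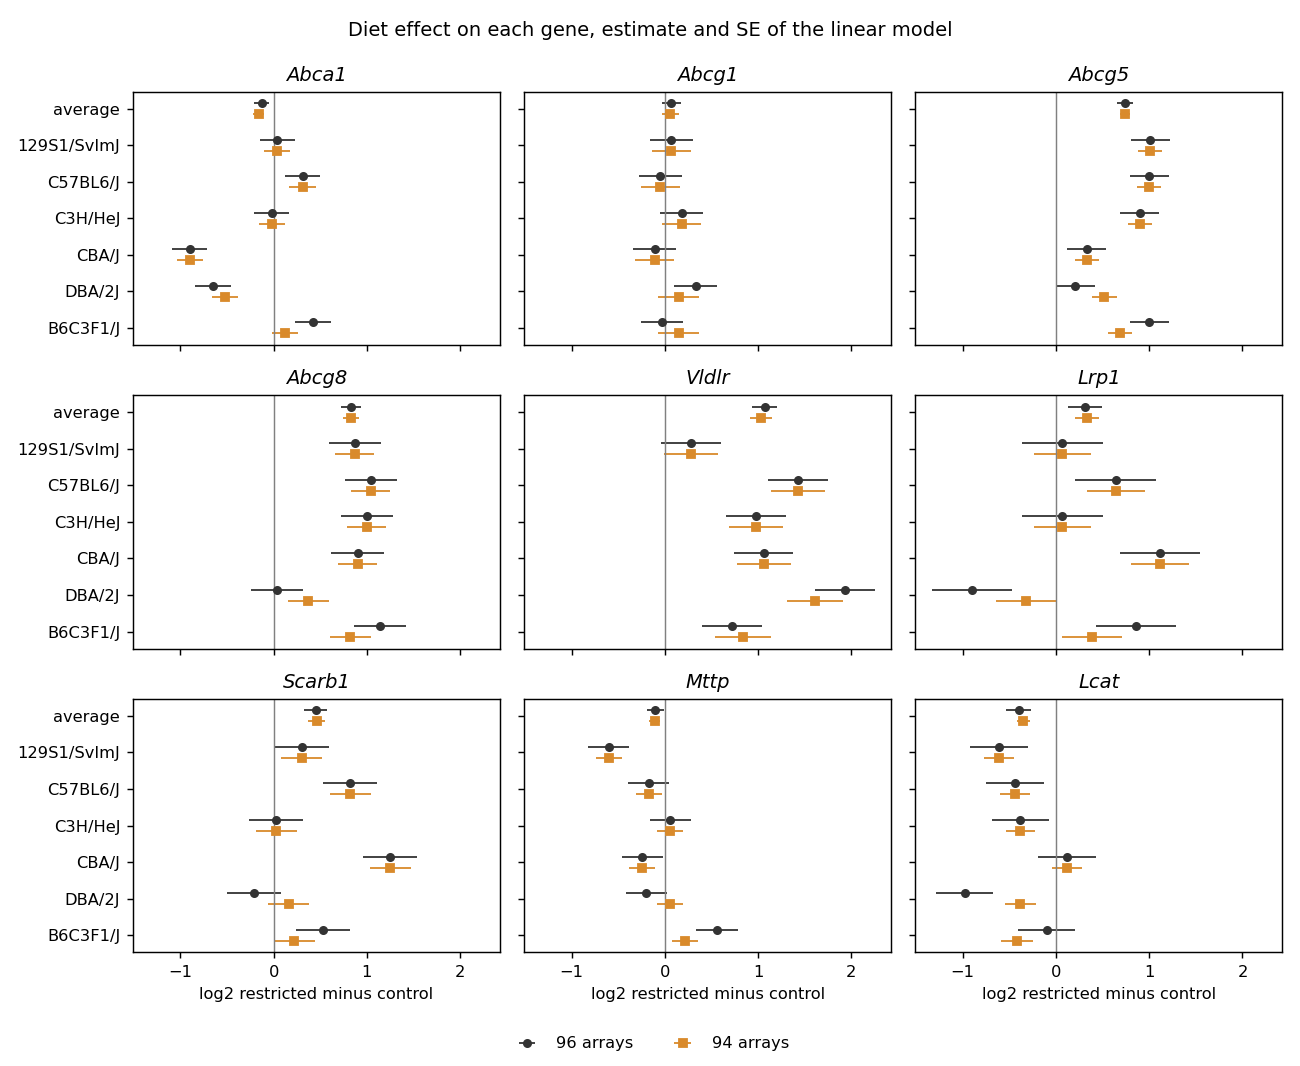
Diet effect on the 9 measured genes. The horizontal axis is the log2 difference, restricted minus control, with 1 row for the average over strains and 1 for each strain; points are the estimates of the linear model and bars their SE, with dark circles for 96 arrays and orange squares for 94 arrays. Abcg5, Abcg8 and Vldlr lie right of 0 in every strain, and Abca1 lies left of it in CBA/J (-0.90) and DBA/2J (-0.65).

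Abcg5 and Abcg8 are neighbours on chromosome 17 that are read in opposite directions. Of the 2 Abcg8 start sites in the RefSeq windows, 1 lies 110 bases from the Abcg5 start, and the other, at 84676302, lies inside the Abcg5 gene. The window at the first of them is used here. This window and that of Abcg5, each running from 250 bases before to 50 bases after the start site in RefSeq on GRCm38.p6, share 209 bases. Of 27025 genes with a window, 11.9% have one that overlaps a window on the opposite strand. Both windows are shown because the 2 genes changed together. The Abcg5 window is chr17:84682962-84683261 on the minus strand and the Abcg8 window is chr17:84682871-84683170 on the plus strand, and capitals mark AGATAA or its reverse TTATCT.
Abcg5: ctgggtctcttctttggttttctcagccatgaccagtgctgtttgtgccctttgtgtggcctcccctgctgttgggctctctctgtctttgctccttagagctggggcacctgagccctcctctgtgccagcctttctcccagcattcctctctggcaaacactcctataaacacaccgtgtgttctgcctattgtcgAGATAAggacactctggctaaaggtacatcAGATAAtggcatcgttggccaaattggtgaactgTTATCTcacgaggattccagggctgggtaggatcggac
Abcg8: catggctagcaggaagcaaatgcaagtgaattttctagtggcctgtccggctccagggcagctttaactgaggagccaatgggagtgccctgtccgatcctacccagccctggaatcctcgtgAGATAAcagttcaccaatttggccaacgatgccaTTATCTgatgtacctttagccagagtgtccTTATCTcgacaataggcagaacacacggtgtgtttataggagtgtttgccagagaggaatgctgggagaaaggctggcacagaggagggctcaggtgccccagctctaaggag
The same 3 marked sites stand in both windows, within the shared stretch. Counted from the Abcg5 start they begin at -52, -22 and 12, and from this Abcg8 start at -127, -93 and -63. At least 1 such match on either strand stands in 11.2% of the 32851 windows of the genome, and 3 or more in 0.107%. AGATAA also stands at -27 in the window of Lcat, which was lower on average, and at 44 in a window of Lipc. The part of these sites in the diet differences was not tested. Other motifs were searched on both strands as well. AGGTCA stands in 16.3% of windows, GGGCGG in 35.7% and TATAAA in 13.6%. Of these, TATAAA stands in the shared stretch, at -84 from the Abcg5 start and as its reverse at -31 from the Abcg8 start. No windows of Abcg1 or Scarb1 were used here.

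Abcg5 was 1.67-fold higher in restricted mice on average (log2 0.74 ± 0.09, adjusted p = 2.22e-11). In 129S1/SvImJ its lowest, median and highest log2 signals were 12.38, 12.97 and 13.40 in restricted mice, against 11.50, 11.84 and 12.27 in controls. In C57BL6/J they were 12.53, 12.84 and 13.00 in restricted mice, against 11.47, 11.93 and 12.07 in controls. Every restricted mouse of these strains stood above every control, which in that direction held for 0.938% of genes in 129S1/SvImJ and 1.18% in C57BL6/J. The C3H/HeJ values were 12.80, 13.16 and 13.40 in restricted mice, against 11.88, 12.13 and 12.77 in controls. The B6C3F1/J values were 12.76, 12.95 and 13.20 in restricted mice, against 9.85, 12.25 and 12.56 in controls. Here too the groups did not overlap, beside 0.675% of genes in C3H/HeJ and 1.07% in B6C3F1/J. In CBA/J they were 11.91, 12.43 and 12.61 in restricted mice, against 11.80, 12.02 and 12.28 in controls. In DBA/2J they were 9.46, 11.95 and 12.17 in restricted mice, against 10.79, 11.33 and 12.11 in controls. Groups overlapped in both of these strains, although 7 of 8 restricted CBA/J mice were above the highest control. The differences of the 4 strains with separate groups were 0.90 to 1.01 and were called, while those of CBA/J (0.33 ± 0.21, adjusted p = 0.210) and DBA/2J (0.21 ± 0.21, adjusted p = 0.627) were not.

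Much of the DBA/2J value hung on 1 array. Without the 2 arrays of high median the Abcg5 difference was 0.52 ± 0.13 in DBA/2J (adjusted p = 0.00443), 0.33 ± 0.13 in CBA/J (adjusted p = 0.0289) and 0.69 ± 0.13 in B6C3F1/J (adjusted p = 0.000157). Abcg5 was then called higher in all 6 strains. Its strain by diet interaction was called in the 94 arrays (adjusted p = 0.00545) and not in the 96 (adjusted p = 0.0621). The lower CBA/J value was near the median of all genes in that strain, 0.31. Under 13 alternatives it ran from 0.19 to 1.13 and was called under 2 of them. The highest was after adjustment for the array median (1.13 ± 0.18, adjusted p = 3.29e-07). Within groups Abcg5 correlated with the array median at -0.70 over the 96 arrays and at -0.08 over the 94.

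Abcg8 was 1.78-fold higher in restricted mice on average (log2 0.83 ± 0.11, adjusted p = 2.75e-09). In C3H/HeJ its lowest, median and highest log2 signals were 11.81, 12.20 and 12.50 in restricted mice, against 10.62, 11.19 and 11.65 in controls. In B6C3F1/J they were 11.85, 12.07 and 12.34 in restricted mice, against 8.69, 11.20 and 11.74 in controls. The groups did not overlap in these strains, beside 0.675% of genes in C3H/HeJ and 1.07% in B6C3F1/J. In 129S1/SvImJ, C57BL6/J and CBA/J 7 of 8 restricted mice were above the highest control. The share of all genes with such partial counts was not computed, here or for the other members. The C57BL6/J values were 10.47, 11.86 and 12.03 in restricted mice, against 10.10, 10.56 and 11.29 in controls. Those of 129S1/SvImJ were 11.33, 12.41 and 12.68 in restricted mice, against 10.26, 11.73 and 12.01 in controls. A single restricted mouse in each of these strains stood far below its group. In CBA/J the values were 11.15, 11.72 and 11.92 in restricted mice, against 9.63, 10.83 and 11.23 in controls. In DBA/2J they were 8.58, 11.14 and 11.57 in restricted mice, against 10.10, 10.68 and 11.95 in controls. No restricted DBA/2J mouse was above the highest control. Abcg8 was called higher in 5 strains, by 0.87 to 1.14, and had a difference of 0.04 ± 0.28 in DBA/2J, which was 0.37 ± 0.22 (adjusted p = 0.364) in the 94 arrays. The 129S1/SvImJ call was the weakest (adjusted p = 0.0428) and was lost under 6 of 14 alternatives, and that of B6C3F1/J was lost without its control replicate 2 alone (0.82 ± 0.26, adjusted p = 0.0533). The interaction of Abcg8 was not called in the 96 arrays (adjusted p = 0.176) or the 94 (adjusted p = 0.432).

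**Figure D2:**
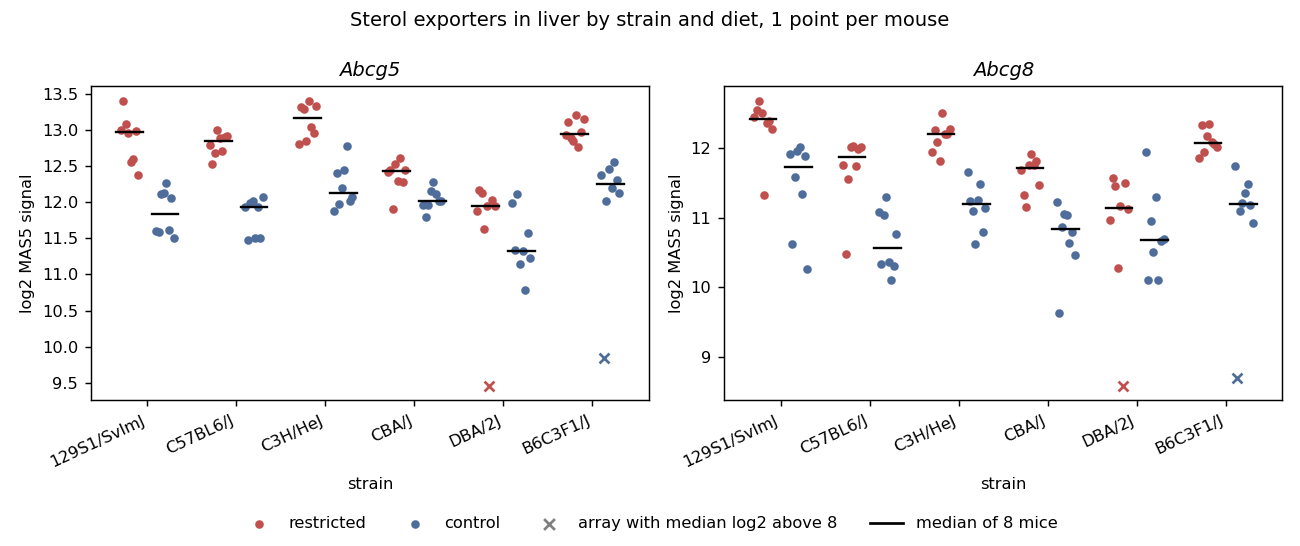
Abcg5 and Abcg8 log2 MAS5 signal (vertical axis) by strain (horizontal axis), with 1 point per mouse, restricted in red to the left of control in blue. Black lines are medians of 8 mice and crosses the 2 arrays with a median log2 above 8. Restricted Abcg5 points lie wholly above the controls in 129S1/SvImJ, C57BL6/J, C3H/HeJ and B6C3F1/J.

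Abca1 was called for diet in CBA/J and DBA/2J and not on average in the 96 arrays. Its averaged difference was -0.13 ± 0.08 (adjusted p = 0.204), which became -0.16 ± 0.06 (adjusted p = 0.0217) in the 94 arrays and 0.02 ± 0.09 (adjusted p = 0.922) without CBA/J. In CBA/J the lowest, median and highest log2 signals were 11.81, 12.21 and 12.73 in restricted mice, against 12.95, 13.15 and 13.28 in controls. All 8 restricted CBA/J mice were below every control, as was the case for 5.89% of genes there. The fall in CBA/J was -0.90 ± 0.19 (adjusted p = 7.40e-05), while the median of all genes in that strain was 0.31 higher. The other 2 Abca1 probe sets had -0.35 ± 0.26 (adjusted p = 0.295) and -0.52 ± 0.31 (adjusted p = 0.181) there. After adjustment for each array's median the CBA/J difference was -0.22 ± 0.16 (adjusted p = 0.323). Within groups Abca1 correlated with the array median at -0.68 over the 96 arrays and at -0.27 over the 94. How far the 2 arrays of high median set this adjustment was not tested. In DBA/2J the values were 11.34, 12.38 and 12.96 in restricted mice, against 12.48, 12.95 and 13.43 in controls. These groups overlapped, with 5 restricted mice below the lowest control. The DBA/2J fall of -0.65 ± 0.19 (adjusted p = 0.0195) was -0.52 ± 0.14 (adjusted p = 0.00982) in the 94 arrays and was not called without DBA/2J restricted replicate 6 alone (-0.52 ± 0.19, adjusted p = 0.0954) or after adjustment for the array median (-0.39 ± 0.14, adjusted p = 0.0841). In C57BL6/J, restricted mice had 12.20, 12.95 and 13.20 and controls had 12.39, 12.57 and 12.85, a difference of 0.31 ± 0.19 that did not pass the test (adjusted p = 0.557). The differences in 129S1/SvImJ (0.04), C3H/HeJ (-0.02) and B6C3F1/J (0.42 ± 0.19, adjusted p = 0.211) did not pass it either.

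Among the 9 members Abca1 had the smallest adjusted p for a strain by diet interaction, 9.26e-05, with 9.95e-07 in the 94 arrays. The call was lost without CBA/J (adjusted p = 0.0986) and after adjustment for the array median (adjusted p = 0.132).

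Abcg1, which exports sterol to HDL and is best known from macrophages, was not called for diet on its brighter probe set. Group medians lay between 8.11 and 8.56 in restricted mice, against 8.2 to 8.64 in controls. The groups overlapped in all 6 strains. The averaged difference was 0.07 ± 0.10 (adjusted p = 0.663), and strain differences from -0.11 to 0.33 were all uncalled. Mean levels of 8 Kupffer cell and macrophage markers were 9.59 ± 0.52 in restricted and 9.39 ± 0.58 in control mice (SD, n = 48 each; permutation p = 0.0442, adjusted p = 0.0707 over 8 measures). The dimmer Abcg1 probe set, with a mean of 6.16 that is below the mean array median, behaved otherwise in 129S1/SvImJ, as described below with the other probe sets.

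Vldlr, the receptor for triglyceride-rich particles, had the largest averaged difference of the 9, 2.10-fold (log2 1.07 ± 0.13, adjusted p = 6.37e-11). In DBA/2J its lowest, median and highest log2 signals were 7.08, 8.06 and 10.38 in restricted mice, against 4.43, 6.30 and 7.30 in controls. In C57BL6/J they were 7.48, 8.99 and 9.19 in restricted mice, against 6.44, 7.39 and 8.14 in controls. In CBA/J they were 5.61, 8.52 and 9.13 in restricted mice, against 6.56, 7.0 and 7.68 in controls. The groups overlapped in each of these strains, with 7, 6 and 6 of 8 restricted mice above the highest control. The C3H/HeJ values were 7.75, 8.66 and 8.96 in restricted mice, against 7.15, 7.51 and 8.32 in controls. The B6C3F1/J values were 8.65, 9.08 and 9.64 in restricted mice, against 7.66, 8.28 and 9.23 in controls. The 129S1/SvImJ values were 9.07, 9.55 and 9.70 in restricted mice, against 8.60, 9.21 and 9.67 in controls. In 129S1/SvImJ, whose control level was already the highest of the 6 strains, the groups nearly coincided.

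The called Vldlr differences were 1.93 ± 0.32 in DBA/2J (adjusted p = 1.03e-05), 1.43 ± 0.32 in C57BL6/J (adjusted p = 0.00169) and 1.06 ± 0.32 in CBA/J (adjusted p = 0.00530). The DBA/2J value was 1.61 ± 0.30 in the 94 arrays, since the array left out was the highest of its group. The call in CBA/J was lost after quantile normalization (0.66 ± 0.36, adjusted p = 0.161) and after adjustment for the array median (0.83 ± 0.36, adjusted p = 0.0694). In C3H/HeJ (0.98 ± 0.32, adjusted p = 0.0980), B6C3F1/J (0.72 ± 0.32, adjusted p = 0.192) and 129S1/SvImJ (0.28 ± 0.32, adjusted p = 0.787) the difference was not called, although C3H/HeJ was called in the 94 arrays (adjusted p = 0.0310). The interaction of Vldlr stood at the threshold, with an adjusted p of 0.0453 in the 96 arrays and 0.0940 in the 94, and was lost under 9 of 14 alternatives. The control means in CBA/J (6.98) and DBA/2J (6.23) were close to or below the mean array median of 6.71, so the size of a fold from them is uncertain. On the 5 dimmer Vldlr probe sets the DBA/2J difference was 0.83 to 1.93 and was not called on any of them (adjusted p from 0.110 to 0.512). In C57BL6/J 1 of them was called (2.41 ± 0.64, adjusted p = 0.0168), and the others were not (adjusted p from 0.175 to 0.577). In CBA/J 1 was called (1.69 ± 0.57, adjusted p = 0.0154), and the others were not (adjusted p from 0.133 to 0.724).

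Scarb1, the HDL receptor, was 1.37-fold higher in restricted mice on average (log2 0.45 ± 0.12, adjusted p = 0.00149). In CBA/J its lowest, median and highest log2 signals were 13.23, 13.67 and 14.24 in restricted mice, against 11.52, 12.60 and 13.11 in controls. All restricted CBA/J mice were above every control, beside 6.13% of genes in that strain. The CBA/J difference was 1.25 ± 0.29 (adjusted p = 0.000268), well over the 0.31 of the median gene there, and it was called under all 15 alternatives run. In C57BL6/J the values were 11.61, 12.78 and 13.14 in restricted mice, against 11.21, 11.72 and 12.34 in controls. There 6 of 8 restricted mice were above the highest control, and the difference of 0.82 ± 0.29 (adjusted p = 0.101) was called in the 94 arrays (adjusted p = 0.00686). In C3H/HeJ they were 12.17, 12.96 and 13.36 in restricted mice, against 12.51, 12.94 and 13.24 in controls. The medians of C3H/HeJ were almost equal, at a difference of 0.03 ± 0.29. Differences were 0.53 in B6C3F1/J, 0.30 in 129S1/SvImJ and -0.21 in DBA/2J, none of them called, and that of DBA/2J was 0.16 in the 94 arrays. The other Scarb1 probe sets had 0.63 ± 0.25 (limma adjusted p = 0.132) and 0.33 ± 0.25 (adjusted p = 0.503) in DBA/2J, opposite in sign. In C57BL6/J both of them were called, at 1.2 ± 0.25 (adjusted p = 0.000951) and 0.93 ± 0.25 (adjusted p = 0.0193). The averaged call was lost without CBA/J (0.29 ± 0.13, adjusted p = 0.129). The interaction was called (adjusted p = 0.0323, and 0.00432 in the 94 arrays), though not without CBA/J (adjusted p = 0.534).

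**Figure D3:**
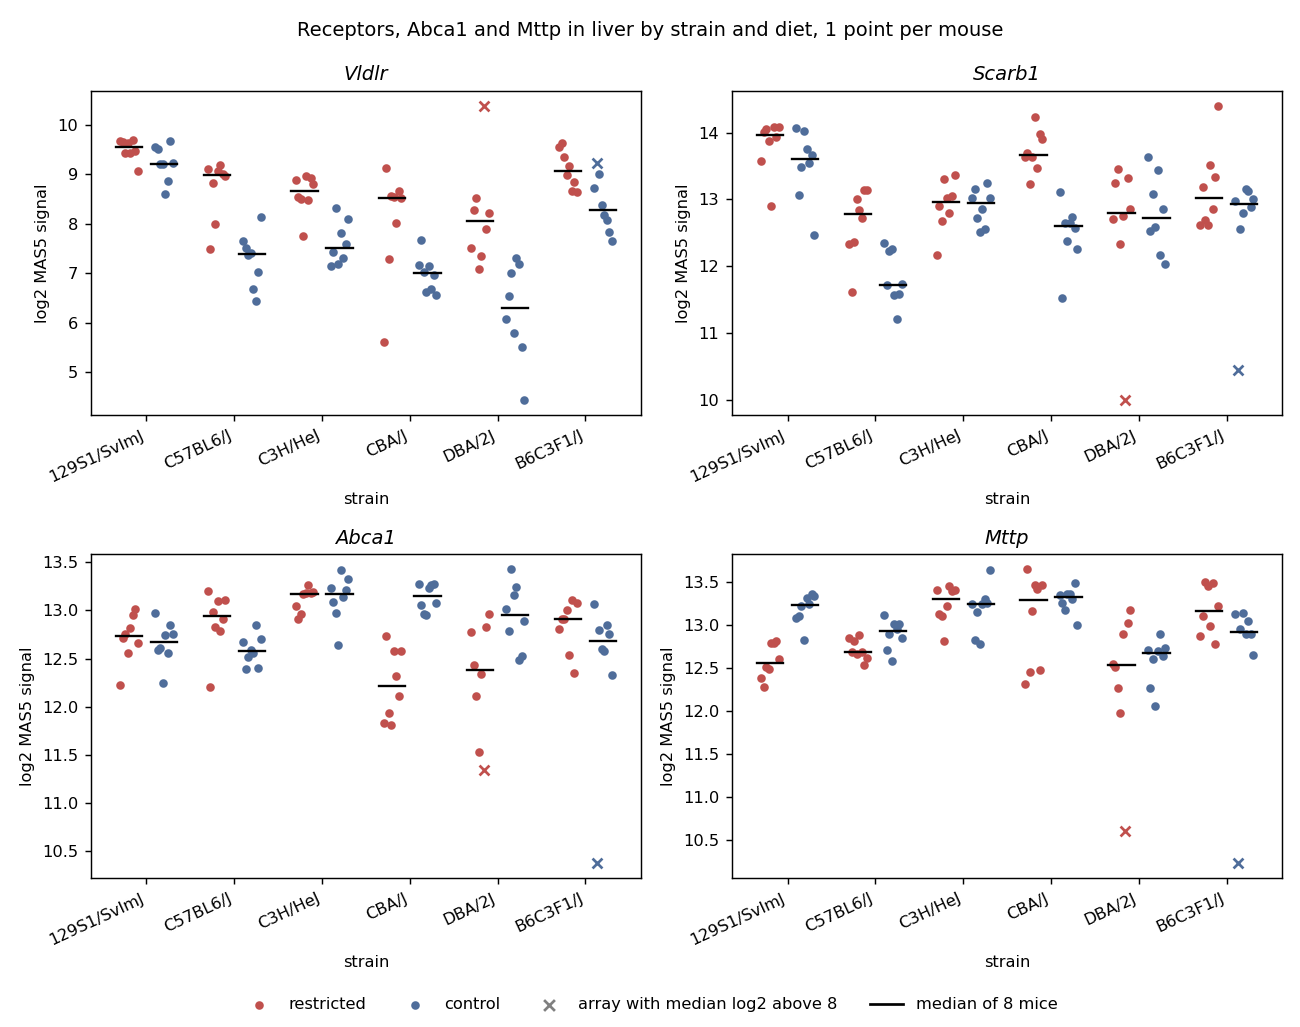
Log2 MAS5 signal (vertical axes) of Vldlr, Scarb1, Abca1 and Mttp by strain (horizontal axes), 1 point per mouse, restricted in red to the left of control in blue. Black lines are medians of 8 mice and crosses the 2 arrays with a median log2 above 8. In CBA/J the restricted mice lie wholly above the controls for Scarb1 and wholly below them for Abca1, and in 129S1/SvImJ they lie wholly below them for Mttp.

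Lrp1, a large endocytic receptor that clears chylomicron remnants, varied widely between mice. In CBA/J its lowest, median and highest log2 signals were 11.93, 12.35 and 13.49 in restricted mice, against 10.22, 11.38 and 12.74 in controls. In DBA/2J they were 6.26, 10.89 and 11.45 in restricted mice, against 10.05, 11.22 and 13.00 in controls. The groups overlapped in all 6 strains. The averaged difference of 0.31 ± 0.18 (adjusted p = 0.197) was called in the 94 arrays (0.33 ± 0.13, adjusted p = 0.0412) and was 0.15 ± 0.20 (adjusted p = 0.711) without CBA/J. After adjustment for the array median it was 0.50 ± 0.16 (adjusted p = 0.00876). The interaction was called after that adjustment (adjusted p = 0.00132) and not before it (adjusted p = 0.0747). Within groups Lrp1 correlated with the array median at -0.53 over the 96 arrays and at 0.11 over the 94. Within strains, CBA/J gave the 1 call, 1.12 ± 0.43 (adjusted p = 0.0325), which was lost after quantile normalization (adjusted p = 0.0797) and after centring on the 75th percentile (adjusted p = 0.0883). Over 14 alternatives the CBA/J difference ran from -0.06 to 2.32, with adjusted p from 7.47e-06 to 0.929. The second Lrp1 probe set gave -0.06 ± 0.43 in CBA/J (adjusted p = 0.929), so the probe sets disagree there. The DBA/2J value of -0.90 ± 0.43 (adjusted p = 0.216) was -0.32 ± 0.32 in the 94 arrays.

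Lcat, the cholesterol acyltransferase of plasma that liver secretes, was 1.32-fold lower in restricted mice on average (log2 -0.40 ± 0.13, adjusted p = 0.0130). In 129S1/SvImJ its lowest, median and highest log2 signals were 12.96, 13.75 and 14.20 in restricted mice, against 13.62, 14.34 and 14.78 in controls. In C57BL6/J they were 12.62, 13.18 and 13.43 in restricted mice, against 13.20, 13.51 and 13.98 in controls. In DBA/2J they were 8.44, 13.02 and 13.66 in restricted mice, against 13.01, 13.55 and 14.64 in controls. Groups overlapped in every strain, with 4 restricted mice below the lowest control in both C57BL6/J and DBA/2J. The difference was below 0 in 5 strains, and CBA/J had 13.18, 13.46 and 13.97 in restricted mice against 12.85, 13.44 and 13.85 in controls, a difference of 0.12 ± 0.31. The call in DBA/2J (-0.98 ± 0.31, adjusted p = 0.0408) was lost in the 94 arrays (-0.38 ± 0.17, adjusted p = 0.174). In the same arrays 129S1/SvImJ was called instead (-0.61 ± 0.16, adjusted p = 0.00600). The average of the 94 arrays was -0.35 ± 0.07 (adjusted p = 1.25e-05), and after adjustment for the array median it was -0.24 ± 0.11 (adjusted p = 0.0827).

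Mttp, the transfer protein of VLDL assembly, had no averaged call (-0.10 ± 0.09, adjusted p = 0.443). In 129S1/SvImJ its lowest, median and highest log2 signals were 12.28, 12.56 and 12.82 in restricted mice, against 12.83, 13.23 and 13.36 in controls. Every restricted mouse of that strain was below every control, as for 1.11% of genes. The difference, -0.60 ± 0.22, missed the threshold in the 96 arrays (adjusted p = 0.0932) and was called in the 94 (-0.60 ± 0.14, adjusted p = 0.000905). In B6C3F1/J the values were 12.78, 13.16 and 13.50 in restricted mice, against 10.23, 12.92 and 13.14 in controls. The B6C3F1/J difference of 0.56 ± 0.22 (adjusted p = 0.126) was 0.22 ± 0.14 (adjusted p = 0.495) in the 94 arrays. In CBA/J they were 12.31, 13.29 and 13.65 in restricted mice, against 13.00, 13.32 and 13.49 in controls. The restricted CBA/J mice fell into 3 below all controls and 5 at control level or above. The interaction was called at the edge of the threshold (adjusted p = 0.0457) and was 0.00637 in the 94 arrays and 0.173 without CBA/J, and it was lost under 6 of 14 alternatives.

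Strain by strain, the calls among the 9 members were these. In 129S1/SvImJ 2 members were higher, beside 2.79% of genes, and they were Abcg5 and Abcg8. By limma 0 were lower there, beside 2.47%, and 1 was at an unadjusted p under 0.05, Mttp. In C57BL6/J 3 were higher, beside 1.86%, namely Abcg5, Abcg8 and Vldlr. In C3H/HeJ 2 were higher, beside 1.1%, again Abcg5 and Abcg8. In B6C3F1/J Abcg5 and Abcg8 were higher, beside 3.35%. By limma 0 members were lower in C57BL6/J (1.85% of genes), C3H/HeJ (0.85%) and B6C3F1/J (1.26%), and 0 were at an unadjusted p under 0.05. In DBA/2J Vldlr was higher, beside 2.3%, and Abca1 and Lcat were lower, beside 4.45%. Both lower calls were lost without DBA/2J restricted replicate 6 alone, Abca1 as given above and Lcat at -0.38 ± 0.21 (adjusted p = 0.378). In CBA/J Abcg8, Vldlr, Lrp1 and Scarb1 were higher and Abca1 was lower, beside 25.1% and 15.6% of genes. Without the 2 arrays of high median, Mttp and Lcat were also lower in 129S1/SvImJ (4.23% of genes), Scarb1 was also higher in C57BL6/J (3.64%), Vldlr in C3H/HeJ (2.23%), Abcg5 in CBA/J (29.6%) and Abcg5 in DBA/2J (3.91%), where Lcat was no longer called lower (4.42%). The interaction of strain and diet was called for 4 of 9 members, Abca1, Scarb1, Vldlr and Mttp, beside 23.9% of genes. In the 94 arrays it was called for Abca1, Scarb1, Abcg5 and Mttp, beside 30.2%. In a separate fit without CBA/J, which kept the 2 arrays of high median, it was called for 0 of the 9. There the adjusted p of Abca1, Scarb1, Vldlr and Mttp was 0.0859 to 0.534. The share of all genes called in that fit is not given here, so this 0 cannot be set against it.

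The strains also differed in level while on the same diet. On the control diet 5 of 9 members, Vldlr, Scarb1, Abca1, Mttp and Abcg5, differed between strains, beside 43.6% of genes. In the 94 arrays 8 of 9 did so, all but Abcg1, beside 52.3%. For Abca1 the control difference rested on its brightest probe set. Its other probe sets were not called on their own (limma adjusted p = 0.462 and 0.846), nor was the mean of its probe sets (adjusted p = 0.291). The largest strain difference was in Vldlr (adjusted p = 6.35e-13). Its control means were 9.23 ± 0.36 in 129S1/SvImJ, 8.38 ± 0.56 in B6C3F1/J, 7.61 ± 0.43 in C3H/HeJ, 7.28 ± 0.55 in C57BL6/J, 6.98 ± 0.37 in CBA/J and 6.23 ± 0.98 in DBA/2J (SD, n = 8 each). In the 96 arrays no strain was called against its neighbour in this order, with adjusted p from 0.0718 to 0.638. In the 94, the B6C3F1/J mean was 8.26 ± 0.48 (n = 7), and 129S1/SvImJ stood 0.97 ± 0.30 above it (adjusted p = 0.0189). The ends of the order were 3.0 ± 0.32 apart, with 129S1/SvImJ above DBA/2J (adjusted p = 6.17e-13). In the restricted mice the order was 129S1/SvImJ at 9.51, B6C3F1/J at 9.11, C57BL6/J at 8.71, C3H/HeJ at 8.60, DBA/2J at 8.15 and CBA/J at 8.04. Here 129S1/SvImJ stood 1.36 ± 0.32 above DBA/2J (adjusted p = 0.00103). DBA/2J came last in the 94 arrays, at 7.84 ± 0.54 (n = 7), and 129S1/SvImJ was 1.67 ± 0.30 above it (adjusted p = 1.08e-05).

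Scarb1 was highest in 129S1/SvImJ and lowest in C57BL6/J on the control diet, at 13.51 ± 0.53 and 11.82 ± 0.40 (SD, n = 8 each; log2 difference 1.68 ± 0.29, adjusted p = 3.41e-06). Between them stood C3H/HeJ at 12.88, DBA/2J at 12.79, B6C3F1/J at 12.62 and CBA/J at 12.48, with no called difference between neighbours in the 96 arrays. In the 94 B6C3F1/J stood at 12.93 ± 0.21 (n = 7), and C57BL6/J minus CBA/J, its neighbour, was called at -0.66 ± 0.22 (adjusted p = 0.0194). Among the restricted mice CBA/J had moved next to 129S1/SvImJ, at 13.73 ± 0.31 beside 13.81 ± 0.41 (adjusted p = 0.855). Abcg5 had a narrower order on the control diet, from 12.22 ± 0.30 in C3H/HeJ to 11.44 ± 0.44 in DBA/2J (difference 0.78 ± 0.21, adjusted p = 0.00696), which was the 1 called pair of 15. In the 94 arrays 9 of the 15 control pairs were called, and B6C3F1/J and C3H/HeJ stood above C57BL6/J, 129S1/SvImJ and DBA/2J. In the restricted mice DBA/2J (11.65 ± 0.90) was below each of the other strains in Abcg5, by 0.72 to 1.47, and remained so in the 94 arrays, by 0.40 to 1.16. On its brightest probe set, the control order of Abca1 ran from CBA/J (13.13 ± 0.14) and C3H/HeJ (13.13 ± 0.24) to B6C3F1/J (12.42 ± 0.86). The B6C3F1/J control mean was 12.71 ± 0.24 in the 94 arrays (n = 7), and there C57BL6/J, at 12.58, stood last. In restricted mice CBA/J (12.24 ± 0.37) stood last, beside DBA/2J at 12.29 ± 0.60 (adjusted p = 0.866).

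Mttp was highest in CBA/J (13.29 ± 0.15) and lowest in DBA/2J (12.58 ± 0.27) on the control diet (difference 0.71 ± 0.22, adjusted p = 0.0175). Lcat was highest in 129S1/SvImJ (14.34 ± 0.36) and lowest in CBA/J (13.42 ± 0.31), the 1 called pair in the 96 arrays (difference 0.91 ± 0.31, adjusted p = 0.0387), where the 94 arrays gave 5. Abcg8 had 1 called control pair in the 96 arrays and 4 in the 94, and that of the 96 was 129S1/SvImJ above C57BL6/J by 0.79 ± 0.28 (adjusted p = 0.0401). Abcg1 had no called pair on the control diet in the 96 arrays or the 94, with control means of 8.22 to 8.56 over the 96. Lrp1 had none in the 96, with control means of 10.96 to 11.90, and 3 in the 94, where C57BL6/J was below 129S1/SvImJ, C3H/HeJ and B6C3F1/J. On the restricted diet 8 of 9 members differed between strains, beside 66.3% of genes (71.5% in the 94 arrays). Abcg1 again did not on its brighter probe set (adjusted p = 0.382). It was called there after quantile normalization (adjusted p = 0.046), adjustment for the array median (adjusted p = 0.0116) and averaging of its probe sets (adjusted p = 0.00132). The dimmer Abcg1 probe set was called on its own (limma adjusted p = 0.00064). The share of all probe sets so called is not given here.

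The cross B6C3F1/J was set against the mean of its parents. On the control diet Vldlr was higher in B6C3F1/J by 0.94 ± 0.28 (adjusted p = 0.0193), the 1 call of 9 members beside 2.72% of genes. By limma 0 were lower, beside 6.22%, and 2, Abca1 and Mttp, were so at an unadjusted p under 0.05. These 2 stood, in the 94 arrays, at -0.14 ± 0.12 (limma unadjusted p = 0.256) and -0.08 ± 0.12 (limma unadjusted p = 0.528). The B6C3F1/J control mice had 7.66 to 9.23, against 7.15 to 8.32 in C3H/HeJ and 6.44 to 8.14 in C57BL6/J, so the groups overlapped. The Vldlr difference was 0.82 ± 0.26 (adjusted p = 0.0371) in the 94 arrays, beside 4.04% of genes. It was not called without B6C3F1/J control replicate 2 alone (adjusted p = 0.0759), after quantile normalization (adjusted p = 0.206) or after adjustment for the array median (adjusted p = 0.0977). Some of the dimmer Vldlr probe sets did not give the call (0.31 to 1.19, adjusted p from 0.103 to 0.728), while the others did. On the restricted diet 0 members were called by limma, beside 3.71% of genes higher and 5.64% lower, and 0 were at an unadjusted p under 0.05. Vldlr was at 0.46 ± 0.28 there (adjusted p = 0.323). The diet effect itself did not differ in a call between B6C3F1/J and its parents for any member, where 0.00675% of genes were called, all lower. At an unadjusted p under 0.05 it did so for 1, Mttp, at 0.61 ± 0.26, which was 0.27 ± 0.17 (limma unadjusted p = 0.115) in the 94 arrays.

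Members were also compared from mouse to mouse, after the mean of each strain and diet group was taken off. Of 36 pairs of members, 28 had a Pearson correlation that passed a permutation test adjusted over the pairs in the 96 arrays and 15 did so in the 94. The share of pairs of other genes that would pass was not computed. These counts and the r values below therefore cannot be read as particular to the members. The median r of the pairs was 0.56 in the 96 arrays and 0.18 in the 94, so much of the shared variation lay in the 2 arrays of high median. Abcg5 and Abcg8 correlated at r = 0.80 and rho = 0.69 over 96 mice (permutation p = 1e-05, the smallest that 100000 draws can give; adjusted p = 3.6e-05), and at r = 0.61 over 94. Without the 2 mice farthest from the median, r was 0.64. Within the 12 groups r lay between 0.23 and 0.98 and was positive in all 12. Scarb1 and Lcat correlated at r = 0.86 and rho = 0.79 over 96 mice and at r = 0.78 over 94 (permutation p = 1e-05 for both r), with 0.79 without the 2 farthest, and at 0.35 to 0.99 within groups. The 2 genes varied together between mice although the averaged diet differences had opposite signs.

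Abcg8 and Scarb1 correlated at r = 0.85 and rho = 0.72 over 96 mice and at 0.74 over 94 (permutation p = 1e-05 for both r), with 0.76 without the 2 farthest and 0.10 to 0.99 within groups. Abca1 and Mttp correlated at r = 0.79 and rho = 0.65 over 96 mice and at 0.57 over 94 (permutation p = 1e-05 for both r), with 0.62 without the 2 farthest and -0.30 to 0.98 within groups. Abcg5 and Mttp, in contrast, had r = 0.64 (permutation p = 0.00676, adjusted p = 0.0116) and rho = 0.18 over 96 mice but r = 0.03 over 94 (permutation p = 0.816), and their relation rested on the 2 arrays. Within groups it lay between -0.68 and 0.99, with 6 of 12 above 0. Over the 96 arrays the members other than Abcg1 and Vldlr correlated with the array median at -0.77 to -0.48 after the group means were taken off, and over the 94 at -0.34 to 0.15.

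**Figure D4:**
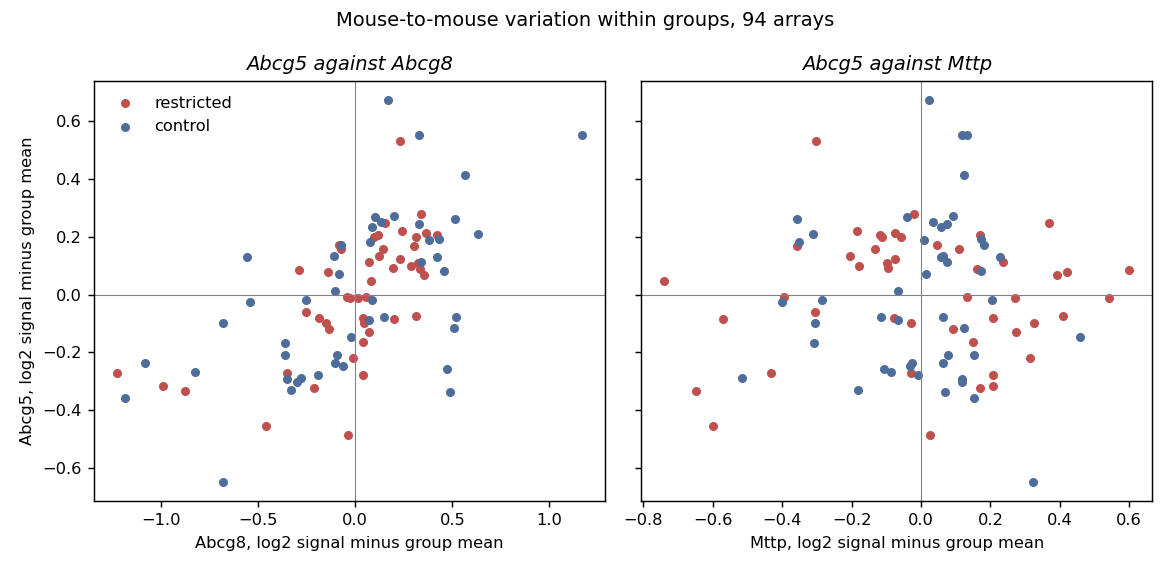
Variation between mice within groups over 94 arrays. The vertical axis is the Abcg5 log2 signal minus the mean of its strain and diet group, and the horizontal axis the same for Abcg8 (left) or Mttp (right), with restricted mice in red and control mice in blue. Abcg5 and Abcg8 spread along a rising diagonal (r = 0.61), while Abcg5 and Mttp show no slope (r = 0.03).

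Over the 12 group means, the gene whose pattern was most like that of Abcg5 was Mknk2 (r = 0.964), and Abcg8 came 12th in nearness among the 14816 genes (r = 0.90, and 0.89 without the 2 arrays). For Abcg8 the nearest gene was Pdlim1 (r = 0.947), Abcg5 was the 6th, and Vldlr was also among the nearest 1% of genes. For Vldlr the nearest was Slc25a27 (r = 0.891), with Abcg8 50th (r = 0.78). Abca1, Abcg1, Lrp1, Scarb1, Mttp and Lcat had no member among their nearest 1%, and their nearest genes were Nsun4 (r = 0.938), Ap1s2 (r = 0.907), Slc38a4 (r = 0.957), Yipf3 (r = 0.933), Pqbp1 (r = 0.897) and Gorasp1 (r = 0.948). These are descriptions over 12 points that share the arrays of each group.

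Each of the 21 probe sets was also tested on its own among 32999. All 6 Vldlr probe sets were called higher on average, by 0.87 to 1.18, and all 3 Scarb1 probe sets, by 0.45 to 0.73, where 11% of probe sets were called higher. The other 5 Vldlr probe sets had mean log2 signals of 4.91 to 6.41, below the mean array median of 6.71. The 3 Abca1 probe sets had averages of -0.15 to -0.09, none called, and the interaction was called for the brightest of them (adjusted p = 0.000115) and not for the others (adjusted p = 0.0822 and 0.235), beside 18.7% of probe sets. The Mttp probe sets differed in CBA/J, where the dimmer one was called higher by 0.59 ± 0.21 (adjusted p = 0.0201), beside 20.6% of probe sets, and the brighter one had -0.24 ± 0.22 in the test over genes. Both had lower means in restricted 129S1/SvImJ mice, at 12.51 and 12.58 against 13.05 and 13.19 in controls. The dimmer Abcg1 probe set was called higher in 129S1/SvImJ by 1.74 ± 0.45 (adjusted p = 0.0118), beside 1.69% of probe sets, with 6.41, 7.31 and 7.57 in restricted mice against 3.90, 5.63 and 6.84 in controls. The brighter Abcg1 probe set had a difference of 0.07 in that strain. The strain by diet interaction was called for the dimmer one (limma adjusted p = 0.00679), beside 18.7% of probe sets, and not for the brighter one (adjusted p = 0.853). Abcg5, Abcg8 and Lcat have 1 probe set each, so their values rest on it.

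**Figure D5:**
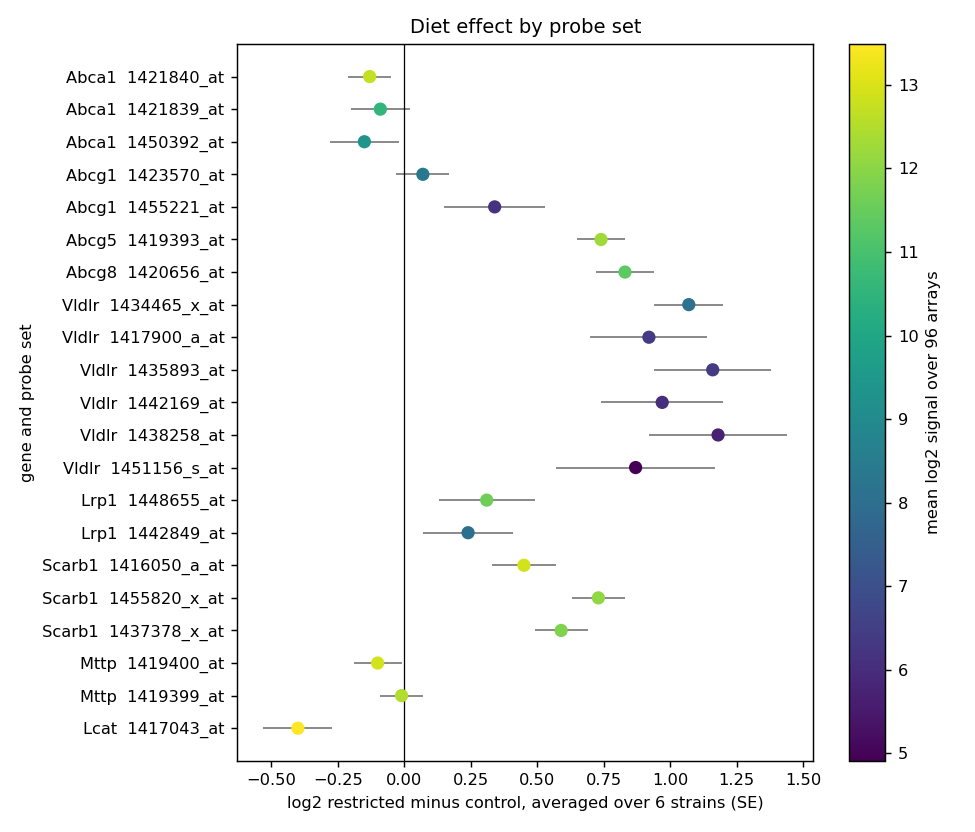
Diet effect averaged over 6 strains for the 21 probe sets. The horizontal axis is the log2 difference, restricted minus control, with bars for the SE; each row is a probe set, and colour gives its mean log2 signal over 96 arrays. The 6 Vldlr probe sets lie between 0.87 and 1.18 and the 3 Scarb1 probe sets between 0.45 and 0.73, while those of Abca1 and Mttp lie near 0.

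The genes around the members were read from lists that were drawn up with earlier results of these data known. Among 9 LXR-related genes tested, 2 were called higher on average and 1 lower, with a median of -0.11. In the 94 arrays 2 were called lower, with Pltp, the phospholipid transfer protein, at -0.29 ± 0.12 (adjusted p = 0.0422). Those called in the 96 arrays were Srebf1, a lipogenic transcription factor (1.02 ± 0.12, adjusted p = 1.95e-11), Lpcat3, a phospholipid remodelling enzyme (0.45 ± 0.09, adjusted p = 2.48e-05), and the bile acid synthesis enzyme Cyp7a1 (-0.88 ± 0.11, adjusted p = 4.02e-11). The receptor genes Nr1h3, Rxra and Rxrb had differences of -0.05, -0.11 and -0.03, none called.

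Of 14 other lipoprotein receptor genes, 4 were higher and 2 lower, with a median of 0.16. The 3 with the smallest p were Pdzk1, which anchors SR-BI at the hepatocyte surface (-0.50 ± 0.06, adjusted p = 1.95e-11), the proteoglycan Sdc1, a remnant receptor (-0.57 ± 0.08, adjusted p = 2.13e-08), and Gpihbp1, which holds lipoprotein lipase on capillaries (0.45 ± 0.07, adjusted p = 2.65e-08). Pdzk1 was lower on average, where Scarb1 was higher, and its difference was below 0 in all 6 strains, which was not tested within strains. Of 21 genes of lipoprotein assembly and remodelling, 8 were higher and 2 lower, with a median of 0.15. In the 94 arrays 10 were higher and 5 lower, with a median of 0.14, beside 18.7% and 15.1% of genes. The counts of the other 3 lists were the same in the 94 arrays. The 3 with the smallest p in the 96 arrays were Lipa, the lysosomal acid lipase (-0.40 ± 0.06, adjusted p = 1.78e-08), Apom, an HDL apolipoprotein (0.35 ± 0.07, adjusted p = 1.27e-05), and Apobec1, which edits Apob RNA (-0.33 ± 0.09, adjusted p = 0.00166).

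Of 11 other genes of the ABCA and ABCG families, 4 were higher and 3 lower, with a median of 0.25. Those with the smallest p were Abcg2, a canalicular drug and urate exporter (-0.51 ± 0.07, adjusted p = 7.84e-10), Abca3, a phospholipid transporter best known from lung (0.79 ± 0.17, adjusted p = 0.000128), and Abca5 (-0.51 ± 0.12, adjusted p = 0.000602). The Abcg2 difference was below 0 in all 6 strains, the opposite sign to Abcg5 and Abcg8. Of 12 genes of sterol traffic and bile, 5 were higher and 4 lower, with a median of 0.04. Cyp7b1, an oxysterol hydroxylase, was lower by -1.05 ± 0.12 (adjusted p = 4.56e-12), Cyp7a1 was lower as given above, and Npc2, which carries cholesterol out of lysosomes, was higher by 0.36 ± 0.06 (adjusted p = 3.4e-06). The differences of Cyp7b1 and Cyp7a1 were below 0 in all 6 strains and that of Npc2 above 0 in all 6, signs that were not tested strain by strain. For all genes tested the median was 0.07, with 15.2% called higher and 12.4% lower.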

How the data were processed

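Signals of 96 arrays were used, 8 for each of 12 groups of strain and diet, grouped by their labels. The authors deposited a linear intensity per probe set. MAS5 is the tool named in the submitters' processing notes. In the files, the trimmed mean of every array, without the highest and lowest 2% of probe sets, was 500, so arrays had been scaled to it. Its version and options were not given in the sources used here. Such scaling sets the mean of an array and not its median, which can shift many genes together.

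Log2 signals were fitted in R 4.3.3 with limma 3.58.1, with a mean for each of the 12 groups and moderated variances (trend and robust options on). Of 45101 probe sets, 64 controls were left out, and those at or above the array median in at least 8 arrays were kept. A gene was its kept probe set of highest mean, which gave 14816 genes, over which p-values were adjusted by the Benjamini-Hochberg method with a threshold of 0.05. By the annotation 34958 probe sets had 1 symbol, 932 had more than 1 and 9211 lacked one. All 21 member probe sets passed the filter. The tests were the averaged and within-strain diet effects, the strain by diet interaction, strain differences on each diet, B6C3F1/J against its parents, permutation tests of correlations (36 pairs, since Lipc was not analysed), and permutation tests of array measures. Named genes outside the set are the 3 of each list with the smallest p for the averaged effect and the nearest gene of each member. Other genes named (the LXR receptor genes, Pltp and the individually named cell type markers) were chosen after their values were seen. The members and lists were chosen with earlier results of these data known. Fits were tested on simulated data. The number of arrays limits precision.

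Replicate numbers did not pair the mice, since deviations of same-numbered restricted and control arrays correlated at -0.17 to 0.14 over 48 pairs. Alternatives were 2 other scalings, an offset, 2 other filters, other probe set rules, another variance model, a replicate block, adjustment for the array median, and arrays or CBA/J left out. Leaving out each of the 2 arrays alone was added after the data were seen. Python 3.11.15 with numpy 2.4.6, scipy 1.17.1 and matplotlib 3.10.9 ran the permutations and drew the plots.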

Additional observations from a re-analysis of the deposited data

Results flagged for a closer look

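In 25 of 108 groups of 8 mice, the highest or lowest value of a member stood far from the other 7, by a test of the gap that chance passes in about 1 of 20 groups. The groups share arrays, and a few mice account for most of them.

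The array B6C3F1/J control replicate 2 stood apart for 8 members. Its log2 signal was far below its group for Abca1 (10.37, others 12.33 to 13.07), Abcg5 (9.85, others 12.01 to 12.56), Abcg8 (8.69, others 10.92 to 11.74), Lrp1 (8.13, others 11.41 to 12.74), Scarb1 (10.44, others 12.55 to 13.16), Mttp (10.23, others 12.65 to 13.14) and Lcat (11.39, others 13.67 to 14.15). For Abcg1 it was above its group, at 9.59 beside 7.76 to 8.60. The array DBA/2J restricted replicate 6 was low for Abcg5 (9.46, others 11.63 to 12.17), Abcg8 (8.58, others 10.27 to 11.57), Lrp1 (6.26, others 10.37 to 11.45), Scarb1 (9.99, others 12.33 to 13.46), Mttp (10.61, others 11.98 to 13.17) and Lcat (8.44, others 12.89 to 13.66), and high for Vldlr (10.38, others 7.08 to 8.51). Both arrays have a median log2 signal above 8. The mean of the 7 hepatocyte markers, which are bright genes, ran from 15.40 to 16.33 over all B6C3F1/J control mice. Over all restricted DBA/2J mice it ran from 16.10 to 16.83.

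In 129S1/SvImJ restricted replicate 5, Abcg8 (11.33, others 12.28 to 12.68), Lrp1 (10.61, others 11.54 to 12.38) and Scarb1 (12.90, others 13.58 to 14.08) were all low. C57BL6/J restricted replicate 2 was low for Abca1 (12.20, others 12.79 to 13.20) and Abcg8 (10.47, others 11.56 to 12.03). Among the others, Abcg1 was low in 129S1/SvImJ control replicate 2 (7.11, others 8.22 to 8.84) and Abcg5 in CBA/J restricted replicate 3 (11.91, others 12.28 to 12.61). Vldlr was low in 129S1/SvImJ restricted replicate 8 (9.07, others 9.42 to 9.70) and in C3H/HeJ restricted replicate 4 (7.75, others 8.47 to 8.96). Lrp1 was high in C57BL6/J control replicate 1 (12.62, others 10.35 to 11.24).

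The diet effect differed between strains, by a test of the difference itself, for Abca1 (limma adjusted p = 9.26e-05, effects from -0.90 to 0.42), Scarb1 (adjusted p = 0.0323, from -0.21 to 1.25), Vldlr (adjusted p = 0.0453, from 0.28 to 1.93) and Mttp (adjusted p = 0.0457, from -0.60 to 0.56).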

How the results depend on the processing

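Of 1207 values recomputed, 1049 kept their direction and side of the threshold, 74 lost a call, 43 gained one, 37 counts moved by over 1.5 times and 4 values reversed. The averaged rises of Abcg5 (0.69 to 0.87), Abcg8 (0.78 to 0.96) and Vldlr (0.87 to 1.18) stayed called under every alternative run. The reversed values were small and uncalled in the alternative: averaged Abca1 without CBA/J (0.02), averaged Abcg1 (-0.01) and Mttp (0.04) after adjustment for the array median, and Lrp1 in CBA/J with its other probe set (-0.06). The cause of these changes was not tested. Members called higher in 129S1/SvImJ numbered 1 in place of 2 after quantile normalization, 75th percentile centring, no filter, testing each probe set separately, plain eBayes, and without CBA/J, and those called lower 1 in place of 0 after adjustment for the array median. In C3H/HeJ they numbered 1 after quantile normalization and 0 after centring, in place of 2, and in CBA/J 2 in place of 4 after quantile normalization. The lower count in DBA/2J was 1 in place of 2 after centring and without CBA/J. The interaction was called for 2 members in place of 4 after centring, with no filter, for every probe set and with plain eBayes, and for 0 without CBA/J. Without the 2 arrays of high median there were 2 lower on average and 2 in 129S1/SvImJ, 2 higher and 1 lower in DBA/2J, and 8 with control strain differences, and the correlated pairs numbered 15. After adjustment for the array median there were 0 lower on average, 0 in CBA/J and 0 in DBA/2J, 2 higher in DBA/2J, 8 with control strain differences, and B6C3F1/J stood above its parents in 0 on the control diet, as after quantile normalization, and in 1 on the restricted diet. With either array left out alone, an alternative chosen after seeing the data, the counts of members lower were 1 to 2 on average, 1 in 129S1/SvImJ and 0 to 2 in DBA/2J, those higher were 1 to 2 in B6C3F1/J, and those of B6C3F1/J above its parents 0 to 1. The replicate block, for numbers that did not pair the mice, changed no count by over 1.5 times and added 1 call, the Lrp1 interaction (adjusted p = 0.0469); 4 of 48 same-numbered pairs correlated over 0.1 and 3 correlated best with their own number. Dim probe sets (Vldlr, Abcg1) limit what can be said of fold sizes, and Abcg5, Abcg8 and Lcat rest on 1 probe set each.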
